A study of Mus musculus with 8 samples.

Results

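The 10 genes described here belong to the Lin28, Hmga and let-7 axis: Lin28a, Lin28b, Trim71, Igf2bp1, Igf2bp2, Igf2bp3, Hmga1, Hmga2, Mycn and Myc. They were taken by symbol from a table of 24354 genes, and each of the 10 had 1 row and passed the filter for testing. The study fused mouse extended pluripotent stem cells with neural stem cells and sequenced the poly-A RNA of 4 kinds of cells, with 2 libraries of each. ESCs were wild-type E14 embryonic stem cells, grown on mitomycin C-inactivated C3H mouse embryonic fibroblasts in medium with serum and LIF. NSCs were neural stem cells of the OG2/ROSA26 double-transgenic line, which carries GFP under the distal enhancer of Oct4 together with lacZ, and were grown on gelatin with EGF and FGF2, without feeder cells. EPSCs were wild-type extended pluripotent stem cells of the C57BL/6 strain, kept in N2B27 medium with LIF, CHIR99021, dimethindene maleate and minocycline on C3H fibroblasts. Hybrid cells came from PEG-mediated fusion of EPSCs and NSCs, were near-tetraploid, expressed GFP from the transgene of the NSC parent and were kept like EPSCs. By their labels, the hybrid libraries had a lower passage number than the EPSC libraries. The 2 libraries of a group came from 1 cell line. The p-values therefore rest on the spread between repeated libraries of a line, pooled over the 4 groups, which may be technical. Where a library was left out of a fit, its group held 1 library, and the spread came from the other groups.

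The let-7 microRNAs accumulate as cells differentiate and repress growth-promoting transcripts through sites in their 3′ untranslated regions (UTRs). Lin28a and Lin28b bind the loop of let-7 precursors and block their maturation, and both are themselves let-7 targets, so the pair and let-7 oppose each other. Igf2bp1 and Igf2bp3, which encode RNA-binding proteins, and Hmga2, which encodes a chromatin protein, are known as fetal and oncofetal genes downstream of this switch. Igf2bp2, Hmga1 and the Myc factor genes Mycn and Myc are grouped with them here. In neural stem cells the axis is known for its decline with developmental age.

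The mature let-7 sequences are shown because the sites described next are read from them. RefSeq (GRCm38.p6) gave a mature 5p sequence for 11 of 12 let-7 and miR-98 precursor genes, and Mirlet7a-2 had no such entry in the table used. All 11 share the seed, bases 2 to 8, printed in capitals. The following 4, written 5′ to 3′, lie at chr13:48538239-48538260 (minus strand), chr13:48536078-48536099 (minus), chr9:106178846-106178867 (plus) and chrX:151913229-151913250 (plus).
let-7a-5p: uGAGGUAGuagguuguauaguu
let-7d-5p: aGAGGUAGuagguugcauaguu
let-7g-5p: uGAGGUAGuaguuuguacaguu
miR-98-5p: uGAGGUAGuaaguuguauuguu

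The longest GENCODE M21 3′ UTR of each of the 10 genes was searched on the transcript strand for CTACCTC, the complement of the seed. The letters occurred in 8 of the 10 genes, with 4 sites each in Lin28b, Trim71, Igf2bp1 and Hmga2, 2 in Lin28a, and 1 each in Igf2bp2, Igf2bp3 and Hmga1. Neither Mycn, with a 3′ UTR of 913 nucleotides, nor Myc, with 466, held the letters. Among the 12315 tested genes with an annotated 3′ UTR, 10.4% held at least 1 site and 1.27% held at least 2. Long 3′ UTRs have more room for 7 letters, and among the 2754 genes whose 3′ UTR was at least as long as the members' median, 22.0% held a site. A count of 4 or more sites was found in 11 of the 12315 genes, 4 of which are Hmga2, Igf2bp1, Lin28b and Trim71. The members were grouped as let-7 axis genes in the first place, so the excess over the background is a description of the group. A match of letters is not evidence that a site is used in these cells.

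Of the 21 sites, 1 for each of the 8 genes is printed below with its surroundings, 30 bases on the transcript strand of GRCm38 and with the complement of the seed in capitals. The positions are chr4:134005182-134005211 for Lin28a, chr10:45381015-45381044 for Lin28b, chr9:114512465-114512494 for Trim71, chr11:95961771-95961800 for Igf2bp1, chr16:22059466-22059495 for Igf2bp2, chr6:49086780-49086809 for Igf2bp3 and chr10:120364217-120364246 for Hmga2, all on the minus strand, and chr17:27563277-27563306 for Hmga1, on the plus strand.
Lin28a: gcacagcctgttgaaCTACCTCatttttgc
Lin28b: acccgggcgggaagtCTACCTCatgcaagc
Trim71: aacattgcctaagtcCTACCTCagcttaaa
Igf2bp1: gctgtgcgaagtaaaCTACCTCaaggtgtg
Igf2bp2: acacacaaataaaagCTACCTCaggtgttt
Igf2bp3: tgcatttttactcaaCTACCTCaggtattc
Hmga1: tcctctgttcacaaaCTACCTCtggacggt
Hmga2: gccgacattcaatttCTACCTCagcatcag

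An A after the seed complement, which gives the site CTACCTCA, followed in 7 of the 8 printed sites and not in that of Hmga1. All 4 sites of Trim71 and 3 of the 4 in Igf2bp1 had this A, whereas 1 of 4 did in Lin28b and in Hmga2. The first site lay 36 nucleotides past the stop codon in Lin28b, 58 in Hmga2 and 166 in Trim71. The last 2 sites of Trim71 lie past the end of the RefSeq gene, within the longer GENCODE 3′ UTR.

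**Figure D1:**
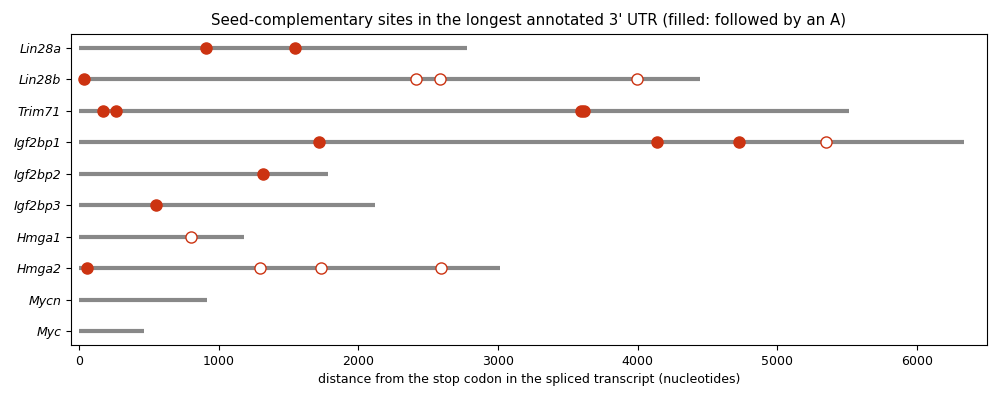
Position of each CTACCTC match (circles, filled where an A follows) along the longest annotated 3′ UTR (grey bars) of the 10 genes, in nucleotides from the stop codon. Lin28b, Trim71, Igf2bp1 and Hmga2 carry 4 matches each, and Mycn and Myc carry none.

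Levels are FPKM, which count sequenced fragments relative to transcript length and to the depth of the library, so levels of different genes can be compared per length. The steps between the lowest FPKM values gave estimated depths of 22100000 to 32600000 fragments per library. Markers fitted the labels: Pou5f1, which encodes the pluripotency factor Oct4, ranged from 742 to 1106 FPKM in ESC, EPSC and hybrid libraries and was listed at 0 in both NSC libraries, and the neural gene Olig2 was at 320.2 and 333.5 FPKM in NSCs and at most 6.09 elsewhere. A list of 18 genes known as fibroblast markers, fibroblasts being the feeder cells of all groups but NSCs, summed to 22.8 and 25.4 FPKM in ESCs, 32.2 and 30.1 in NSCs, 111.4 and 107.2 in EPSCs and 409.9 and 303.3 in hybrid cells. Of the 17 fibroblast markers tested, 10 were higher and 5 lower in ESCs than in NSCs, although the sum was higher in NSCs. S100a4, at 13.1 and 10.1 FPKM, and Prrx1, at 6.36 and 7.70, made up much of the NSC sum, while the collagen gene Col1a2 was listed at 0 in both NSC libraries. All 17 fibroblast markers that were tested were higher in hybrid cells than in EPSCs. In bulk RNA, fewer cells of a type and less RNA per cell cannot be told apart.

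Lin28a (chr4:134003330-134019196), which encodes the cytoplasmic let-7 inhibitor, was at 94.4 and 95.3 FPKM in the 2 ESC libraries, 161.1 and 114.3 in EPSCs, 141.8 and 71.8 in hybrid cells, and 0.0107 and 0.0317 in NSCs. The NSC values correspond to about 1 and 3 fragments, so Lin28a was at the limit of detection there and abundant in the other 3 kinds of cells. Hybrid cells exceeded NSCs by 6.64 ± 0.29 (SE) on the log2(FPKM + 1) scale (limma, Benjamini-Hochberg adjusted p = 3.1e-07), a size that depends on the added 1. Against EPSCs the difference was -0.42 (95% interval -1.10 to 0.26, limma with Benjamini-Hochberg adjusted p = 0.274), and against ESCs it was 0.09 (95% interval -0.59 to 0.77, adjusted p = 0.805). The difference from ESCs passed without hybrid replicate 2 (0.58, limma with Benjamini-Hochberg adjusted p = 0.0301), was -0.40 without hybrid replicate 1 (adjusted p = 0.0996) and was -0.0242 after quantile normalization (adjusted p = 0.942). The hybrid libraries differed from each other by 1.98-fold and enclosed the lower EPSC library. Without hybrid replicate 1, Lin28a was lower in hybrid cells than in EPSCs (-0.91, adjusted p = 0.0104), and without hybrid replicate 2 the difference was 0.06 (adjusted p = 0.808), so its order between these groups rests on which library is kept (adjusted p 0.0104 to 0.808 over all settings tried). Lin28a was at 138 ± 33.1 FPKM (SD, n = 2) in EPSCs and 94.8 ± 0.66 in ESCs, a difference of 0.51 (limma with Benjamini-Hochberg adjusted p = 0.163), which passed the threshold without either hybrid library (adjusted p = 0.0216 without replicate 1 and 0.0214 without replicate 2, the highest over all settings being 0.545).

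Lin28b (chr10:45376617-45486314), the paralog of Lin28a, was at 5.89 and 5.73 FPKM in ESCs, 7.15 and 5.74 in EPSCs, 2.702 and 1.915 in hybrid cells, and 0.0472 and 0.0133 in NSCs. Both hybrid libraries were below all ESC and EPSC libraries, and all of these were above the NSCs, where about 7 and 2 fragments were counted. In hybrid cells Lin28b was 2.79-fold lower than in EPSCs (log2 change -1.17 ± 0.14, limma with Benjamini-Hochberg adjusted p = 0.000816) and 2.52-fold lower than in ESCs (-1.05 ± 0.14, adjusted p = 0.000382). Lin28b, Hmga1 and Myc differed from both parents and lay between them in hybrid cells, Lin28b at 0.588 ± 0.0857 (SD over the 2 hybrid libraries) on a log2 scale where NSCs are 0 and EPSCs 1. With a pseudocount of 0.1 in place of 1 the position was 0.743. Lin28b did not pass between EPSCs and ESCs (difference 0.12, 95% interval -0.20 to 0.44, limma with Benjamini-Hochberg adjusted p = 0.467).

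The ratio of Lin28a to Lin28b was therefore not the same in the 3 pluripotent groups. It was 52.5 and 37.5 in the hybrid libraries, 22.5 and 19.9 in EPSCs, and 16.0 and 16.6 in ESCs. The 3 groups did not overlap. With 2 libraries per group the smallest two-sided p of an exact permutation test is 0.333, so the ratios are given without a test.

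Trim71 (chr9:114511268-114564369), which encodes a ubiquitin ligase and mRNA repressor of early embryos, was at 12.9 and 14.6 FPKM in ESCs, 27.2 and 28.7 in EPSCs, 35.6 and 26.7 in hybrid cells, and 0.0422 and 0.0277 in NSCs. It was lowest in NSCs, intermediate in ESCs and highest in EPSCs and hybrid cells, whose libraries overlapped. EPSCs were 2.03-fold above ESCs (log2 change 0.97 ± 0.13, limma with Benjamini-Hochberg adjusted p = 0.000576), and hybrid cells were 2.27-fold above ESCs (1.11 ± 0.13, adjusted p = 0.00024). The summed fibroblast markers were also higher in EPSCs and hybrid cells than in ESCs. The hybrid library with the higher sum had the higher Trim71 level. That library also had the higher levels of Lin28a, Lin28b, Mycn and Pou5f1 and the lower level of Hmga2. The part of fibroblast RNA was not tested. Between hybrid cells and EPSCs the difference in Trim71 was 0.14 (95% interval -0.17 to 0.44, limma with Benjamini-Hochberg adjusted p = 0.428). It changed sign without hybrid replicate 1 (-0.06, adjusted p = 0.625) and passed the threshold without hybrid replicate 2 (0.34, adjusted p = 0.0307), with adjusted p up to 0.685 over all settings tried.

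**Figure D2:**
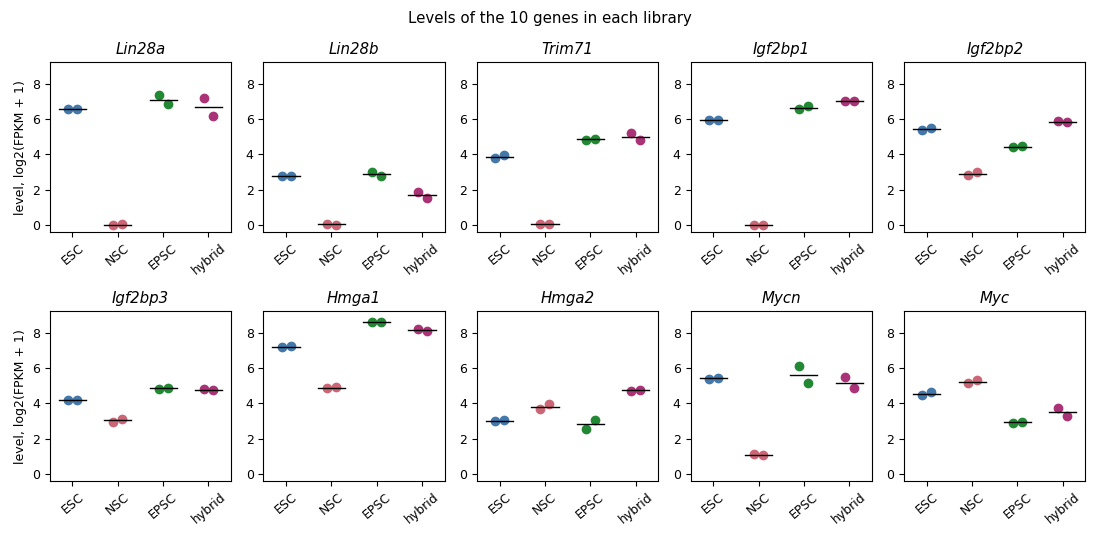
Level of each gene as log2(FPKM + 1) in the ESC, NSC, EPSC and hybrid libraries (points, 2 per group) with the mean on that scale (line). Lin28a, Lin28b, Trim71 and Igf2bp1 sit at the floor in NSCs, Hmga2 is highest in hybrid cells, and Myc is highest in NSCs.

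Igf2bp1 (chr11:95957163-96005944), which encodes an RNA-binding protein that stabilises target mRNAs such as that of Myc, was at 59.9 and 60.3 FPKM in ESCs, 94.1 and 104.5 in EPSCs, and 129.4 and 128.9 in hybrid cells. It was listed at 0 in both NSC libraries, so no fold is given, and 3 fragments would have read as 0.0129 and 0.0127 FPKM in those libraries. The 3 pluripotent groups did not overlap and rose from ESCs over EPSCs to hybrid cells. The summed fibroblast markers had the same order over these 3 groups, and their part in the result was not tested. Between the 2 hybrid libraries the sums were 409.9 and 303.3 FPKM, where Igf2bp1 was at 129.4 and 128.9. Hybrid cells were 1.30-fold above EPSCs (log2 change 0.38 ± 0.06, limma with Benjamini-Hochberg adjusted p = 0.00298) and 2.15-fold above ESCs (1.09 ± 0.06, adjusted p = 9.62e-06), and EPSCs were 1.65-fold above ESCs (0.71 ± 0.06, adjusted p = 8.09e-05).

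Igf2bp2 (chr16:22059009-22163299), its paralog, was at 41.3 and 43.5 FPKM in ESCs, 6.01 and 7.02 in NSCs, 20.5 and 20.9 in EPSCs, and 57.8 and 55.0 in hybrid cells. Hybrid cells were above every other library, and EPSCs were below ESCs. Igf2bp2 was 2.72-fold higher in hybrid cells than in EPSCs (log2 change 1.40 ± 0.08, limma with Benjamini-Hochberg adjusted p = 8.35e-05), 8.66-fold higher than in NSCs (2.94 ± 0.08, adjusted p = 2.41e-08) and 1.33-fold higher than in ESCs (0.40 ± 0.08, adjusted p = 0.00254). In EPSCs it was 2.05-fold lower than in ESCs (log2 change -0.9997 ± 0.08, limma with Benjamini-Hochberg adjusted p = 4.78e-05). The summed fibroblast markers also rose from EPSCs to hybrid cells but not from EPSCs to ESCs, where the sum was lower, and their part in the result was not tested.

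Igf2bp3 (chr6:49085218-49215469), the third paralog, was at 17.0 and 17.2 FPKM in ESCs, 6.77 and 7.69 in NSCs, 26.9 and 28.8 in EPSCs, and 26.6 and 26.1 in hybrid cells. Hybrid libraries lay just below the EPSC libraries, and the 3 pluripotent groups were above NSCs. The difference between hybrid cells and EPSCs was -0.07 (95% interval -0.24 to 0.10, limma with Benjamini-Hochberg adjusted p = 0.444), whereas hybrid cells were 1.54-fold above ESCs (0.60 ± 0.07, adjusted p = 0.000284) and 3.65-fold above NSCs (1.74 ± 0.07, adjusted p = 2.51e-07). The difference from NSCs was 1.20 once every library was scaled to a sum of 1000000 and still passed. EPSCs exceeded ESCs by 1.63-fold (log2 change 0.67 ± 0.07, limma with Benjamini-Hochberg adjusted p = 0.000213). Summed fibroblast markers were also higher in EPSCs and hybrid cells than in ESCs. Their sum rose again from EPSCs to hybrid cells, where Igf2bp3 did not pass, and their part in the result was not tested.

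As a share of the summed FPKM of the 3 paralogs, Igf2bp1 made up 60.9% ± 0.60 (SD, n = 2) after fusion, below the 67.1% ± 0.88 of EPSCs and above the 50.3% ± 0.59 of ESCs. The share of Igf2bp2 was 26.6% ± 0.60 after fusion, above the 14.02% ± 0.63 of EPSCs and below the 35.5% ± 0.67 of ESCs. In NSCs the sum was split between Igf2bp2, at 47.4% ± 0.51, and Igf2bp3, at 52.6% ± 0.51. The makeup of hybrid cells thus differed from that of EPSCs by a larger share of Igf2bp2 and smaller shares of both others, with no overlap of libraries.

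**Figure D3:**
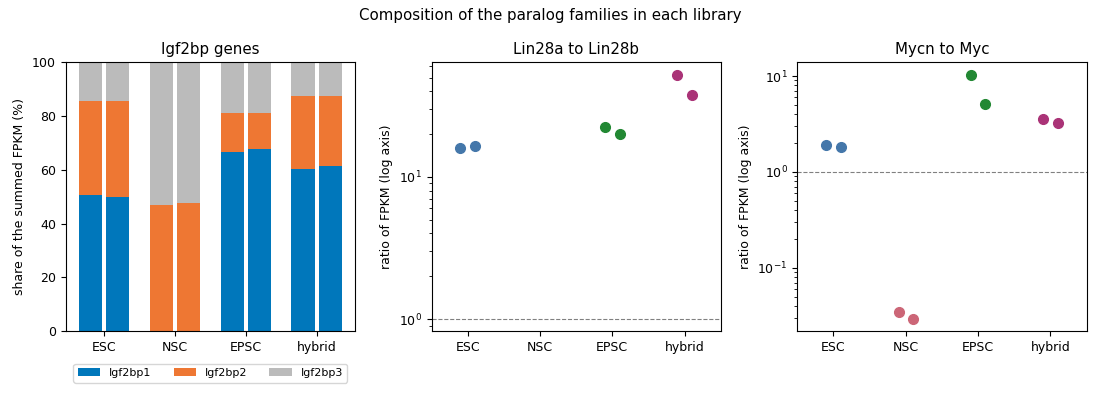
Left, share of Igf2bp1, Igf2bp2 and Igf2bp3 in their summed FPKM (%), 1 bar per library. Middle and right, ratio of Lin28a to Lin28b (NSCs left out, since both genes rest on few fragments there) and of Mycn to Myc, 1 point per library on log axes, with a dashed line at equal levels. Hybrid cells have the highest Lin28a to Lin28b ratio, and the Mycn to Myc ratio is below equality in NSCs alone.

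Hmga1 (chr17:27556574-27563672), which encodes an AT-hook protein that binds the minor groove of DNA and alters chromatin, was at 142.0 and 151.7 FPKM in ESCs, 27.8 and 29.7 in NSCs, 380.5 and 386.5 in EPSCs, and 288.5 and 267.2 in hybrid cells. It had the highest level of the 10 genes in all 6 pluripotent libraries, and no groups overlapped. Hmga1 was 1.38-fold lower in hybrid cells than in EPSCs (log2 change -0.46 ± 0.06, limma with Benjamini-Hochberg adjusted p = 0.00139) and 9.66-fold higher than in NSCs (3.23 ± 0.06, adjusted p = 6.63e-09). EPSCs were 2.61-fold above ESCs (1.38 ± 0.06, limma with Benjamini-Hochberg adjusted p = 5.32e-06). Summed fibroblast markers also rose from ESCs to EPSCs, but rose further in hybrid cells, where Hmga1 was below EPSCs. Their part in the result was not tested. How the authors counted fragments that match more than 1 place in the genome is not given in the sources used here, which leaves the level of Hmga1 uncertain.

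Hmga2 (chr10:120361268-120476469), the fetal paralog of Hmga1, was at 6.92 and 7.22 FPKM in ESCs, 11.7 and 14.5 in NSCs, 4.97 and 7.40 in EPSCs, and 25.0 and 26.3 in hybrid cells. Hybrid cells were above every other library, NSCs came next, and ESC and EPSC libraries overlapped. Hmga2 was 4.15-fold higher in hybrid cells than in EPSCs (log2 change 1.91 ± 0.16, limma with Benjamini-Hochberg adjusted p = 0.000282), 3.63-fold higher than in ESCs (1.72 ± 0.16, adjusted p = 8.53e-05) and 1.96-fold higher than in NSCs (0.93 ± 0.16, adjusted p = 0.000917). The difference from NSCs did not pass once every library was scaled to a sum of 1000000 (0.35, adjusted p = 0.113, the highest over all settings tried, with a lowest of 0.000144). That scaling moved the median change of all genes between hybrid cells and NSCs from 0.06 to -0.50. EPSCs were 2.11-fold below NSCs (-0.98 ± 0.16, limma with Benjamini-Hochberg adjusted p = 0.000658). Over all settings tried this difference ranged from -1.61 to -0.74 and stayed past the threshold.

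Hmga2 moved in parallel with the fibroblast markers between EPSCs and hybrid cells. Col3a1, the fibrillar collagen gene, had 10.4 and 10.5 FPKM in EPSCs against 43.6 and 33.4 in hybrid cells, and Col1a1 had 13.7 and 15.7 FPKM against 61.0 and 46.2. In NSCs, which had no feeder cells, Hmga2 was measured at 11.7 and 14.5 FPKM while Col3a1 was listed at 0 and at 0.00645, but other fibroblast markers were present, among them Prrx1 at 6.36 and 7.70 FPKM and Fbn1 at 3.88 and 3.91, both above their EPSC levels. Between ESCs and EPSCs, both on feeder cells, the fibroblast sum differed and Hmga2 libraries overlapped (difference -0.19, 95% interval -0.57 to 0.19, limma with Benjamini-Hochberg adjusted p = 0.346). Without EPSC replicate 2 Hmga2 was lower in EPSCs than in ESCs (-0.43, adjusted p = 0.0259), and without EPSC replicate 1 the difference was 0.06 (adjusted p = 0.726). Within hybrid cells, the library with the higher fibroblast sum had the lower Hmga2 level, 25.0 against 26.3 FPKM. The part of fibroblast RNA in the higher Hmga2 of hybrid cells was not tested.

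**Figure D4:**
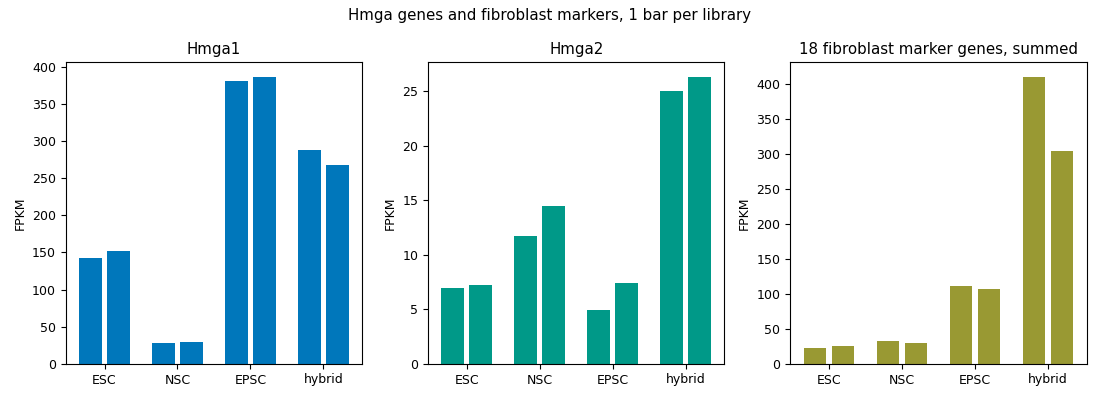
FPKM in each of the 8 libraries (1 bar each) of Hmga1 (left), Hmga2 (middle) and the sum of 18 fibroblast marker genes (right). EPSCs have the tallest bars for Hmga1, and hybrid cells for both Hmga2 and the fibroblast sum.

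The ratio of Hmga1 to Hmga2 ranged in pluripotent cells from 10.8 ± 0.99 (SD, n = 2) in hybrid cells and 20.8 ± 0.35 in ESCs to 64.4 ± 17.2 in EPSCs. It was 2.22 ± 0.23 in NSCs. Hmga1 was above Hmga2 in each of the 8 libraries.

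Mycn (chr12:12936093-12941836), which encodes the N-Myc transcription factor, was at 41.0 and 42.6 FPKM in ESCs, 1.18 and 1.12 in NSCs, 67.1 and 34.6 in EPSCs, and 44.6 and 27.8 in hybrid cells. The pluripotent groups overlapped, with a 1.94-fold gap between both EPSC libraries, and all were far above NSCs. Hybrid cells were 31.5-fold above NSCs (log2 change 4.07 ± 0.31, limma with Benjamini-Hochberg adjusted p = 6.26e-06). No difference among pluripotent groups passed, with -0.44 (95% interval -1.16 to 0.28, limma with Benjamini-Hochberg adjusted p = 0.279) for hybrid cells against EPSCs. Leaving out EPSC replicate 2, the lower EPSC library, brought that difference to -0.91 (adjusted p = 0.0289), and leaving out replicate 1 brought it to 0.03 (adjusted p = 0.95), the lowest and highest adjusted p over all settings tried.

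Myc (chr15:61985341-61990361), which encodes c-Myc, was at 21.5 and 23.6 FPKM in ESCs, 34.5 and 38.2 in NSCs, 6.47 and 6.78 in EPSCs, and 12.5 and 8.63 in hybrid cells. NSCs were highest, followed by ESCs, hybrid cells and EPSCs, with no overlap of groups. Hybrid cells were 3.44-fold below NSCs in Myc (log2 change -1.71 ± 0.15, limma with Benjamini-Hochberg adjusted p = 1.57e-05) and 2.13-fold below ESCs (-1.04 ± 0.15, adjusted p = 0.000653). Scaling every library to a sum of 1000000 brought the difference from NSCs to -2.35, which also passed. EPSCs were 3.40-fold below ESCs (-1.62 ± 0.15, limma with Benjamini-Hochberg adjusted p = 0.000105). Against EPSCs, hybrid cells were 1.60-fold higher (0.58 ± 0.15, limma with Benjamini-Hochberg adjusted p = 0.0177), but this call was lost at a similar size in a fit of those 2 groups alone (0.58, adjusted p = 0.0989) and without EPSC replicate 1 (0.55, adjusted p = 0.0703) or EPSC replicate 2 (0.61, adjusted p = 0.0506). The call was kept, with a difference of 0.34, without hybrid replicate 1 and with one of 0.83 without hybrid replicate 2 (limma with Benjamini-Hochberg adjusted p = 0.00157, the lowest over all settings tried). The summed fibroblast markers also rose from EPSCs to hybrid cells, and their part in the result was not tested. The hybrid library with the higher sum had the higher level of Myc, as of Lin28a, Mycn and Pou5f1.

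Mycn exceeded Myc in every pluripotent library, by 1.91 and 1.80 times in ESCs, 10.4 and 5.10 times in EPSCs, and 3.56 and 3.22 times in hybrid cells. In NSCs Mycn was at 0.0344 and 0.0292 of the level of Myc. The major Myc gene by level was thus Mycn in the 3 pluripotent groups and Myc in NSCs.

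Hybrid cells were first compared with their NSC parent. These groups differ in ploidy, medium and feeder cells as well as in cell state, which cannot be told apart here. Levels in hybrid cells were not split by parental genome. Hybrid cells had higher levels of 9 of the 10 genes and a lower level of Myc, all past an adjusted p of 0.05 in limma with Benjamini-Hochberg adjustment. In this comparison 86.5% of all 13239 genes tested were called, 44.5% higher and 42.0% lower in hybrid cells, so a call by itself says little here. The median log2 change was 3.08 for the members and 0.06 for all genes tested. EPSCs, compared with NSCs, had higher levels of 8 genes and lower levels of Hmga2 and Myc, where 86.2% of all genes tested were called, 45.2% higher and 41.0% lower. ESCs against NSCs gave the same 8 higher and 2 lower genes, where 84.7% of all genes tested were called, 42.8% higher and 41.9% lower. The 3 comparisons share the NSC libraries.

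Against their EPSC parent, hybrid cells had higher levels of Igf2bp1, Igf2bp2, Hmga2 and Myc and lower levels of Lin28b and Hmga1. Lin28a, Trim71, Igf2bp3 and Mycn did not pass. These 6 of 10 calls stand beside 44.4% of all genes tested called in this comparison, 22.5% higher and 21.9% lower. In a fit of these 2 groups alone the called genes fell from 5881 to 2811 of 13239, and the called members from 6 to 5. Lin28b, Igf2bp2 and Hmga2 changed by more than 1 on the log2(FPKM + 1) scale, as did 3.56% of all genes tested. The median log2 change was 0.03 for the members and 0 for all genes. Only Hmga2, among the 10, met the stricter rule of the study's methods, a mean above 3 FPKM with more than a 3-fold difference, which 1.59% of all genes tested met. The paper's Results state a looser rule, above 2 FPKM and more than 2-fold, which was not applied here. Igf2bp1, Igf2bp2 and Hmga2 were above both parents, as were 12.7% of all genes tested, and also above ESCs, as were 9.37%.

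EPSCs were also compared with ESCs. These groups differ in cell line and medium as well as in pluripotent state, which cannot be told apart here. EPSCs had higher levels of Trim71, Igf2bp1, Igf2bp3 and Hmga1 and lower levels of Igf2bp2 and Myc, while Lin28a, Lin28b, Hmga2 and Mycn did not pass. Of the 17 fibroblast markers tested, 15 were higher and 0 lower in EPSCs than in ESCs, and their part in these calls was not tested. Of all genes tested, 61.0% were called in this comparison, 33.7% higher and 27.3% lower. On the log2(FPKM + 1) scale the changes of Hmga1 and Myc exceeded 1, as did those of 9.90% of all genes tested, and Igf2bp2 and Trim71 lay just inside at -0.9997 and 0.97. Myc alone met the rule of the study's methods, against 4.72% of all genes tested. The median log2 change was 0.36 for the members and 0.04 for all genes.

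Hybrid cells against ESCs gave 6 higher genes, Trim71, the 3 Igf2bp genes, Hmga1 and Hmga2, and 2 lower genes, Lin28b and Myc, where 65.5% of all genes tested were called, 35.3% higher and 30.2% lower. Lin28a and Mycn did not pass. All 17 fibroblast markers tested were also higher in hybrid cells than in ESCs, and their part in these calls was not tested. Lin28b, Trim71, Igf2bp1, Hmga2 and Myc changed by more than 1 on the log2(FPKM + 1) scale, as did 13.6% of all genes tested. Hmga2 alone met the rule of the study's methods here, which 6.68% of all genes tested met.

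**Figure D5:**
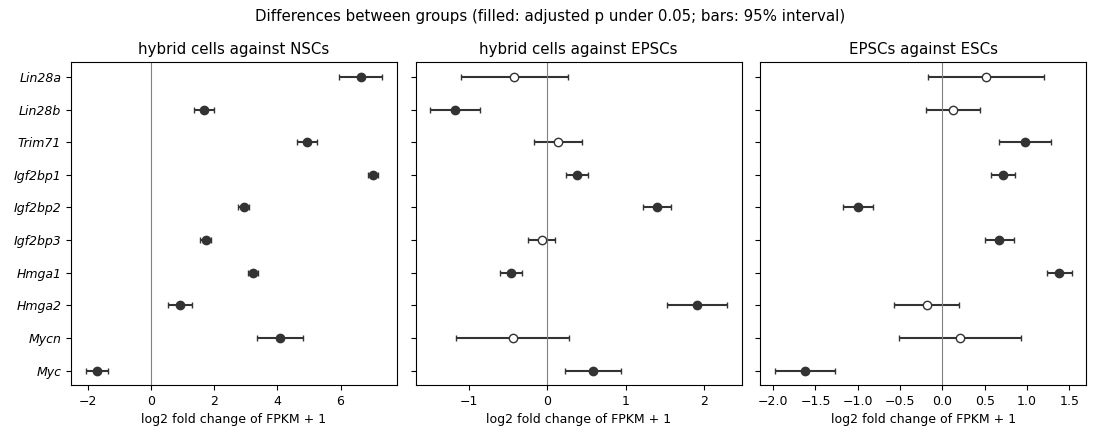
Log2 fold change of FPKM + 1 for the 10 genes in 3 comparisons (points, filled where the limma adjusted p was under 0.05) with 95% intervals (bars). In the middle panel Hmga2 and Igf2bp2 lie farthest to the right of 0, and Lin28b lies farthest to the left, at -1.17.

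On the scale with NSCs at 0 and EPSCs at 1, hybrid cells stood at 0.940 ± 0.0974 (SD, n = 2) for Lin28a, 1.03 ± 0.0592 for Trim71, 1.06 for Igf2bp1, 0.959 ± 0.00972 for Igf2bp3, 0.874 ± 0.0211 for Hmga1, 0.902 ± 0.104 for Mycn and 0.746 ± 0.152 for Myc. Igf2bp2, at 1.91 ± 0.0327, lay beyond the EPSC level. The median over the 9 genes whose parents differed enough to be placed was 0.940. Hmga2 was not placed, because its parents differed by less than 1 on the log2(FPKM + 1) scale (-0.98 for EPSCs against NSCs). Its level in hybrid cells lay outside both parents.

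The let-7 precursor genes themselves were poorly covered by these libraries. Of the 12 genes, 11 were listed at 0 in all 8 libraries, and Mirlet7d was at 44.4 FPKM in 1 ESC library and at 0 in the other 7. Poly-A libraries do not measure mature microRNAs, so the level of let-7 in these cells was not measured.

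Genes that process let-7 precursors or act with the mature microRNA form a list of 26, all tested. Between hybrid cells and NSCs, 13 were higher, 9 were lower and 4 did not pass, beside 44.5% higher and 42.0% lower over all genes tested. Mov10, an RNA helicase of the silencing complex, was higher in hybrid cells (46.1 against 5.97 FPKM, log2 change 2.76 ± 0.07, limma with Benjamini-Hochberg adjusted p = 2.14e-08). Msi1, a neural RNA-binding protein that acts with Lin28 on let-7 family precursors, was lower (6.24 against 29.9 FPKM, -2.10 ± 0.15, adjusted p = 4.86e-06), as was Prkra, a Dicer partner (5.79 against 24.2 FPKM, -1.89 ± 0.11, adjusted p = 1.29e-06). Between hybrid cells and EPSCs, 2 of the 26 were higher, 9 were lower and 15 did not pass, beside 22.5% higher and 21.9% lower over all genes tested. Msi1 was at 6.24 against 10.8 FPKM (-0.71 ± 0.15, limma with Benjamini-Hochberg adjusted p = 0.0084). EPSCs had higher levels of 14 of the 26 than ESCs and lower levels of 4, beside 33.7% and 27.3% over all genes tested. Among the higher were Ago2, the slicing Argonaute (21.3 against 6.96 FPKM, 1.48 ± 0.13, limma with Benjamini-Hochberg adjusted p = 9.06e-05), and Zcchc11, the terminal uridylyl transferase that Lin28a recruits to let-7 precursors (13.2 against 5.36 FPKM, 1.16 ± 0.08, adjusted p = 3.45e-05).

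Another 25 genes are known as let-7 targets, and 20 of them held a seed-complementary site. Hybrid cells had 10 at higher and 14 at lower levels than NSCs, with a median log2 change of -0.40, beside 44.5% higher and 42.0% lower and a median of 0.06 over all genes tested. Nr6a1, an orphan nuclear receptor gene whose 3′ UTR held 8 sites, had 30.1 and 22.8 FPKM in both hybrid libraries against 0.908 and 0.950 in NSCs (3.82 ± 0.12, limma with Benjamini-Hochberg adjusted p = 6.53e-08). Ccnd2, the cyclin D2 gene, had 152.4 and 164.6 FPKM in NSCs against 8.52 and 5.33 in hybrid cells (-4.36 ± 0.18, limma with Benjamini-Hochberg adjusted p = 2.08e-07). Between hybrid cells and EPSCs 2 of the 25 were higher, 6 were lower and 17 did not pass, beside 22.5% higher and 21.9% lower over all genes tested. EPSCs had 13 at higher and 4 at lower levels than ESCs, beside 33.7% and 27.3% over all genes tested, and the largest change was that of the kinase gene Cdk6, at 8.90 and 8.98 FPKM in EPSCs and 1.17 and 1.54 in ESCs (2.08 ± 0.19, limma with Benjamini-Hochberg adjusted p = 0.000108).

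Tested genes with an annotated 3′ UTR, outside the 10 members, were also sorted by their number of sites, a description chosen after the members were seen. The median log2 change between hybrid cells and NSCs was 0.06 for the 11031 genes with no site, -0.04 for the 1123 with 1 site and 0.06 for the 151 with at least 2. Between EPSCs and ESCs the medians were 0.04, 0.05 and 0.20. The medians between hybrid cells and NSCs were thus close to 0 with and without sites, where calls went both ways in every class. In EPSCs against ESCs, 33.9% of genes with no site, 33.3% with 1 and 47.0% with at least 2 were called higher. The shares called lower were 27.5%, 26.5% and 19.9%. The classes were not matched for the length of the 3′ UTR, and the difference between them was not tested.

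The insulin-like growth factor 2 genes were listed for the mRNA after which the Igf2bp family is named. Of 10 such genes 9 were tested, and 6 of them were higher in hybrid cells than in EPSCs, with none lower, beside 22.5% higher and 21.9% lower over all genes tested. Igf2, the growth factor, was at 3.83 and 3.996 FPKM in EPSCs, 12.4 and 8.88 after fusion, 3.98 and 3.79 in ESCs, and 0.151 and 0.208 in NSCs (hybrid cells against EPSCs 1.23 ± 0.14, limma with Benjamini-Hochberg adjusted p = 0.000728). The hybrid library with the higher fibroblast sum had the higher level of Igf2, as of Lin28a, Mycn and Pou5f1. The part of fibroblast RNA was not tested. Against NSCs 3 of the 9 were higher and 6 lower in hybrid cells, beside 44.5% and 42.0% over all genes tested, among the lower Igfbp3, a binding protein of the growth factor (14.8 against 276 FPKM, -4.13 ± 0.06, limma with Benjamini-Hochberg adjusted p = 2.74e-09).

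Other high-mobility-group genes form a list of 7. In hybrid cells 2 of them were above and 4 below their NSC levels, where 44.5% of all genes tested were above and 42.0% below. Against EPSC levels 2 were above and 4 below, where 22.5% and 21.9% of all genes tested were. Hmgn3, a nucleosome-binding protein gene, had 82.4 FPKM in NSCs against 3.58 in hybrid cells (-4.19 ± 0.12, limma with Benjamini-Hochberg adjusted p = 4.48e-08). Hmgn2 had 248 FPKM in EPSCs against 128 in hybrid cells and 76.5 in ESCs (hybrid cells against EPSCs -0.95 ± 0.07, limma with Benjamini-Hochberg adjusted p = 0.000175).

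Among 11 further genes of the Myc family and the MAX network, through which Myc proteins bind DNA, 10 were tested. Between hybrid cells and NSCs 4 were higher and 6 lower, beside 44.5% and 42.0% over all genes tested. Mxd4 and Mxd3, which encode MAX partners, were lower in hybrid cells, Mxd4 at 1.38 against 26.6 FPKM (-3.54 ± 0.16, limma with Benjamini-Hochberg adjusted p = 3.8e-07) and Mxd3 at 2.67 against 27.7 FPKM (-2.97 ± 0.10, adjusted p = 6.78e-08). Mga and Mnt, which encode further MAX partners, were higher (1.96 ± 0.15, adjusted p = 7.17e-06, and 1.88 ± 0.09, adjusted p = 4.82e-07, in limma with Benjamini-Hochberg adjustment). Mxd1 was lower in EPSCs than in ESCs (1.54 against 7.28 FPKM, -1.71 ± 0.10, limma with Benjamini-Hochberg adjusted p = 1.61e-05).

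For each gene, the tested genes outside the members with the most similar pattern over the 8 libraries were found by Pearson's r of log2(FPKM + 1), where the libraries form 4 groups and are not independent points. Lin28a was most like Frrs1 (r = 0.999), Lin28b like Ankrd10 (0.997), and Trim71 like Capsl (0.9995). The closest genes were Atg14 for Igf2bp1 (0.9997), Dpp7 for Igf2bp2 (0.997) and Serpinb6a for Igf2bp3 (0.999). Hmga1 was most like Vprbp (0.999), Mycn like Snrpn (0.998) and Myc like Pard6g (0.997). Hmga2 had the weakest nearest match of the 10, Inf2 (0.980), followed by Cpxm1 (0.978) and Dcaf12 (0.976).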

How the data were processed

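Poly-A RNA of 8 libraries, 2 per group, was sequenced. The authors trimmed reads with skewer, aligned them with STAR 2.7.9a to mm10 and deposited FPKM from Cuffnorm of Cufflinks 2.2.1. Annotation, strand setting and library normalization are not given in the sources used here. Columns were assigned to groups by their labels.

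FPKM were tested as log2(FPKM + 1) with limma 3.58.1 (R 4.3.3; lmFit, contrasts, eBayes with trend), 4 groups in 1 fit, two-sided, over the 13239 genes with a mean of at least 1 FPKM in at least 1 group. The residual degrees of freedom were 4 and the prior 3.25. A call is a Benjamini-Hochberg adjusted p under 0.05. Ratios and positions are values without a test. The procedure was tested on simulated data, with no outcome reported here.

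Depth was estimated from the steps of low FPKM, which are whole fragments for genes of 1 transcript. With an assumed fragment length of 200 nucleotides, 80.3% to 86.6% of low values lay within 0.15 of a whole number. Longest GENCODE M21 transcripts gave 3′ UTRs, and RefSeq tables gave gene positions and microRNAs (Python 3.11.15, pandas 2.3.3). mm10 and GRCm38 are the same build.

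The 10 genes and the gene lists were chosen with earlier results of these data known. All 10 genes are named. From each list up to 4 genes are eligible per comparison, those with the largest log2 change among genes called whose libraries do not overlap, plus defining cell markers. Alternatives were another pseudocount, other filters, scaling, quantile normalization, a replicate block, fits of 2 groups, the study's rule and leaving out each library.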

Additional observations from a re-analysis of the deposited data

How the results depend on the processing

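Of the 60 differences of 10 genes in 6 comparisons, 49 kept their direction and side of the threshold under every setting tried and 11 changed under at least 1. The counts of called genes fell from 6 to 3 for hybrid cells against EPSCs, from 8 to 5 for hybrid cells against ESCs and from 6 to 2 for EPSCs against ESCs when a change of more than 1 on the log2(FPKM + 1) scale was also required, and to 1 in each under the rule of the study's methods. These criteria are stricter by construction. Over all 13239 genes tested, 5881 were called for hybrid cells against EPSCs with the 4 groups in 1 fit and 2811 with those 2 groups alone, a fit with fewer samples. After quantile normalization the difference in Lin28a between hybrid cells and ESCs was -0.0242.

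Leaving out each library in turn gave ranges that include 0 for 8 differences that had not passed. For hybrid cells against EPSCs they were -0.91 to 0.0632 for Lin28a, -0.0635 to 0.34 for Trim71 and -0.91 to 0.0258 for Mycn. For hybrid cells against ESCs they were -0.40 to 0.58 for Lin28a and -0.57 to 0.0921 for Mycn. For EPSCs against ESCs they were -0.0158 to 0.26 for Lin28b, -0.43 to 0.0577 for Hmga2 and -0.27 to 0.67 for Mycn. The cause was not tested.

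With the replicate number as a block (replicate block), the members called stayed at 10, 6 and 8 for hybrid cells against NSCs, EPSCs and ESCs, and no member's call changed. No source used here pairs same-numbered libraries. Their deviations from the group means correlated at 0.28 for EPSCs and hybrid cells and between -0.11 and 0.07 for the other pairs of groups.

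With 2 libraries per group the smallest exact permutation p is 0.333, so calls rest on the spread that limma shares across genes. Fragment depth limits the NSC values of Lin28a, Lin28b, Trim71 and Igf2bp1, whose folds against NSCs depend on the pseudocount.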
